A study of Homo sapiens with 14 samples.

Results

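The HOX cluster genes are the 39 genes of the tables whose symbol is HOX followed by the cluster letter A, B, C or D and a number. They make up 39 of the 55075 genes in the tables, with 11 in HOXA, 10 in HOXB, 9 in HOXC and 9 in HOXD, which lie on chromosomes 7, 17, 12 and 2 in GENCODE 29. RNA was sequenced from CUTLL1 and CEM, a pair of established human T cell acute lymphoblastic leukemia lines grown in suspension. Retroviruses had brought in 1 of 3 hairpins: shJMJD3, which targets KDM6B, the gene of JMJD3, shUTX, which targets KDM6A, the gene of UTX, or the control shRenilla, which targets a luciferase that human cells lack. CUTLL1 had 3 shJMJD3, 2 shUTX and 3 shRenilla samples, and CEM had 2 of each. How many hairpin sequences or clones stand behind a sample was not given in the sources used here.

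HOX genes encode homeodomain transcription factors that give cells positional identity along the body axis, and their order along each chromosome follows their order of use in the embryo. Polycomb complexes keep the clusters silent by trimethylating lysine 27 of histone H3, and JMJD3 and UTX are the enzymes that remove this mark. In blood, HOX genes are used mainly by stem and progenitor cells, and HOXA genes such as HOXA9 and HOXA10 are raised in a subset of T cell leukemias. HOX proteins bind DNA together with TALE cofactors of the PBX and MEIS families.

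The promoter sequences of HOXA10, HOXA13 and HOXA2 are shown because the contrasts between lines and hairpins below turn on these genes. They come from RefSeq promoter windows of GRCh38.p14, which run 5′ to 3′ from 250 bases before to 50 bases after a transcript's start. HOXA10 has a pair of start sites and therefore 2 windows. Capitals mark matches, on either strand, to TGATTNAT (a site bound by PBX with HOX proteins), TATAAA (the TATA box) or CCAAT (the CCAAT box).
HOXA10, first window, chr7:27179812-27180111, minus strand: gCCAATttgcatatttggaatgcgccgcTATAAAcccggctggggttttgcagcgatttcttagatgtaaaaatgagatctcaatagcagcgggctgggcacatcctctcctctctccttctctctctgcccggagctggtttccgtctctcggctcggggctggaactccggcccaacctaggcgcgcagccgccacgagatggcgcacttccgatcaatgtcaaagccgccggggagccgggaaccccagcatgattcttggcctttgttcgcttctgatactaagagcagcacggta
HOXA10, second window, chr7:27174271-27174570, minus strand: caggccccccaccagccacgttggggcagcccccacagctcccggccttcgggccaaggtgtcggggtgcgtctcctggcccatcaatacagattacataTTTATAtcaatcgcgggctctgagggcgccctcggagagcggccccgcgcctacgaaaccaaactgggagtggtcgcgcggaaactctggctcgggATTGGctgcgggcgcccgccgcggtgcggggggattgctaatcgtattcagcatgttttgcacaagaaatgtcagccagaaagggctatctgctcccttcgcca
HOXA13, chr7:27200042-27200341, minus strand: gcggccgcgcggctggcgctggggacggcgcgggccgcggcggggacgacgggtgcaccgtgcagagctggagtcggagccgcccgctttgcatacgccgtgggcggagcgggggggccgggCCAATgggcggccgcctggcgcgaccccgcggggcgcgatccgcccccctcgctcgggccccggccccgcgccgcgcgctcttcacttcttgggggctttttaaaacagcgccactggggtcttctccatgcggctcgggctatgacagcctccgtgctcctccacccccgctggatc
HOXA2, chr7:27102634-27102933, minus strand: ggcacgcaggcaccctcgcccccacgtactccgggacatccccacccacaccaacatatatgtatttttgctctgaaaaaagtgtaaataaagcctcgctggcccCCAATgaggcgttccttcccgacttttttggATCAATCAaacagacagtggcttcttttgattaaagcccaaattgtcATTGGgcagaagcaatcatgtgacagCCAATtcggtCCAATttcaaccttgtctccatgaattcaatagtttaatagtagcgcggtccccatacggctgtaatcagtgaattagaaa

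A CCAAT match stood in all 4 windows, with 4 in that of HOXA2 and 1 in each of the others. HOXA2 had the single PBX-HOX match among them, and each HOXA10 window held 1 TATA match. RefSeq windows were at hand for 20 of the 39 HOX genes, 27 windows in all. TGATTNAT stood in 7.41% of these 27 windows and in 2.82% of all 35116 windows, TATAAA in 18.5% and 11.5%, and CCAAT in 66.7% and 34.6%. No match overlapped another in the 4 windows shown. The HOX windows had a median of 22 CpG pairs, against 14 in all windows, and a median observed over expected CpG ratio of 0.849, against 0.579. A match describes letters in a window and says nothing on its own about binding.

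Each hairpin and line has 1 deposited count column, and none shows the spread between its replicates. Totals ran between 70280185 and 258014046 counts. The CUTLL1 shRenilla column was deposited in 2 versions, a larger one of 258014046 counts, in the table with shJMJD3, and a smaller one of 144394369, in the table with shUTX. Both are given below. The larger was at or above the smaller in every gene, and subtracting them leaves 113619677 counts, called the control remainder here. Small noncoding RNAs took 11.7% of the shJMJD3 counts, 2.58% of the shUTX counts, 9.33% of the larger and 1.97% of the smaller shRenilla counts in CUTLL1, but at most 0.049% of any CEM column. KDM6B stood at a log2 ratio of -0.64 in CUTLL1 and -1.71 in CEM in shJMJD3 against shRenilla cells, and KDM6A at -1.13 and -1.36 in shUTX against shRenilla cells. The T cell markers CD3D, CD3E, CD2, CD7 and CD5 were each at 25.9 or more CPM in every column (CPM is a gene's count scaled to a common column total). Markers of other cells summed to little: 3 B cell markers to at most 0.0393 CPM in CUTLL1 and 0.925 CPM in CEM, with MS4A1 at 0 throughout, 3 myeloid markers to at most 0.402 and 0.254 CPM, and 3 fibroblast markers to at most 0.637 and 1.31 CPM. Fewer cells with a HOX transcript and less of it per cell cannot be told apart in such bulk RNA.

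HOX transcripts were scarce in both lines and came mostly from HOXB. All 39 genes together reached 12.4 CPM in shJMJD3, 19.9 in shUTX, 17.4 in the larger and 21.0 in the smaller shRenilla column of CUTLL1. In CEM the sums were 36.5 CPM with shJMJD3, 53.2 with shUTX and 54.8 with shRenilla. HOXB supplied 85.6%, 72.5%, 85.2% and 85.4% of the HOX counts in the 4 CUTLL1 columns, in that order, and 96.4%, 94.3% and 96.1% in CEM. HOXA supplied 12.3%, 26.3%, 14.1% and 13.8% in CUTLL1, against 2.93%, 3.56% and 2.56% in CEM. The shUTX column of CUTLL1 thus had the highest HOXA share.

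Most members were at or near the limit of detection. No count was found in any column for 6 genes (HOXA9, HOXB1, HOXB13, HOXD1, HOXD9 and HOXD11). A further 21 had fewer than 50 counts summed over 6 columns, the larger CUTLL1 control included, with at most 27 counts and 0.311 CPM in a single column. The remaining 12 genes reached 50 counts. With a minimum of 10 counts over the 3 columns of a line, 6 genes were detected in both lines (HOXA13, HOXB2, HOXB3, HOXB4, HOXB7 and HOXD3). Another 8 passed in CUTLL1 alone (among them HOXA2, HOXA3, HOXA5, HOXA6, HOXA7, HOXC6 and HOXD12), and 6 in CEM alone (HOXA10, HOXB5, HOXB9, HOXC4, HOXC9 and HOXD4). The other 19 passed in neither. This split depends on depth, since CUTLL1 columns held more counts. The share of all genes that split this way was not computed, so these counts say nothing about HOX genes as a group.

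**Figure D1:**
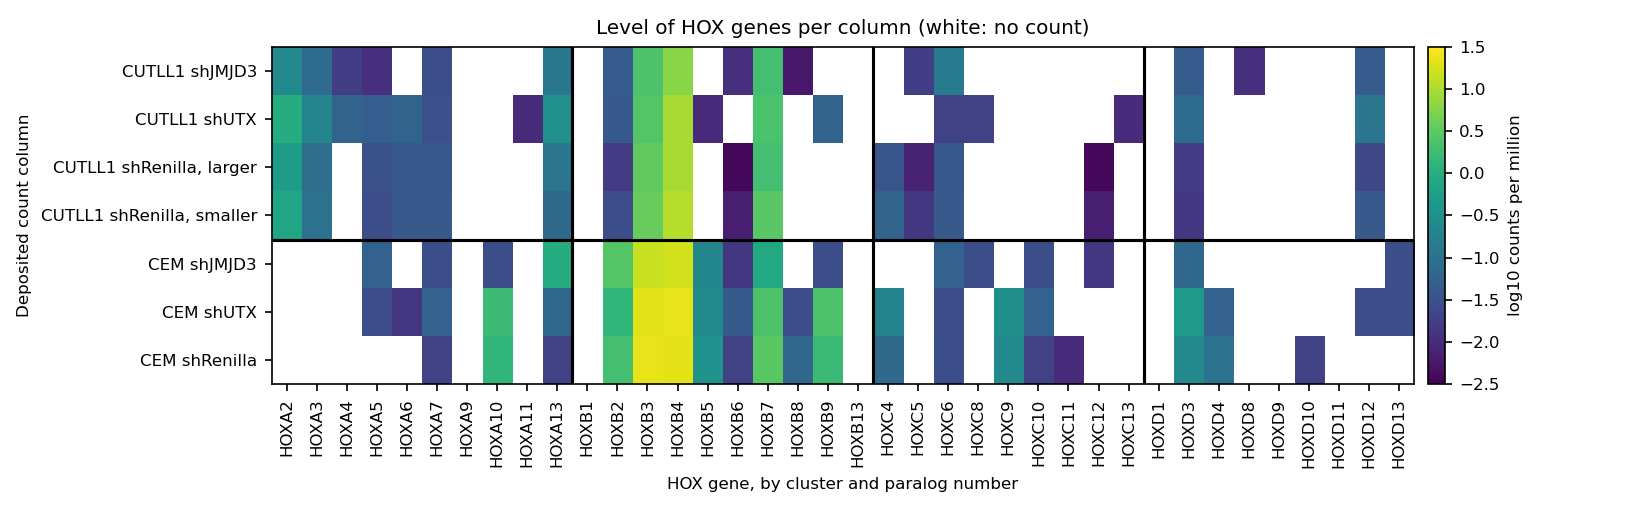
Level of the HOX genes shown in every deposited column, as log10 CPM, with genes ordered by cluster and number. Colour is concentrated in HOXB2 to HOXB4 and HOXB7, in HOXA2 for CUTLL1, and in HOXA10 and HOXB9 for the shUTX and shRenilla columns of CEM.

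By mean level over the 2 lines, HOXB4 and HOXB3 were the most abundant members, both from the 3′ part of the HOXB cluster. HOXB4, a factor known for expanding blood stem cells, had 1079 counts in shJMJD3, 948 in shUTX, 2418 in the larger and 1622 in the smaller shRenilla column of CUTLL1, which is 6.19, 9.31, 9.37 and 11.2 CPM. In CEM it had 1185, 1612 and 2275 counts with shJMJD3, shUTX and shRenilla, or 16.9, 22.8 and 21.8 CPM. It was the highest HOX gene in all 4 CUTLL1 columns, and by CPM HOXB3 passed it in CEM shRenilla cells.

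HOXB3, its neighbour, had 414, 271, 872 and 537 counts in the CUTLL1 shJMJD3, shUTX, larger and smaller shRenilla columns, against 1016, 1481 and 2456 in CEM shJMJD3, shUTX and shRenilla cells. HOXB2 had 8, 4, 4 and 4 counts in the same CUTLL1 columns and 192, 96 and 213 in CEM. All 3 CEM columns of HOXB2 thus lay far above the CUTLL1 columns. HOXB7, from the middle of the cluster, had 348, 241, 527 and 425 counts in CUTLL1 and 60, 170 and 315 in CEM. Compared per length of exons, the mean over CUTLL1 columns was 2.21 CPM per kb for HOXB4, 1.56 for HOXB7 and 0.448 for HOXB3. In CEM it was 5.45 CPM per kb for HOXB4, 3.13 for HOXB3 and 1.53 for HOXB7.

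Within HOXA, HOXA2 and HOXA3 had counts in CUTLL1 alone, HOXA10 had counts in CEM alone, and HOXA13 had counts in both lines. HOXA2, a 3′ gene and a hindbrain and neural crest factor, had 44 counts in shJMJD3, 98 in shUTX, 127 in the larger and 105 in the smaller shRenilla column of CUTLL1, and 0 in all 3 CEM columns. HOXA3, needed for thymus formation, had 14, 21, 22 and 14 counts in CUTLL1 and 0 in CEM. In each CUTLL1 column the counts were lower with each step along the cluster, through HOXA2 and HOXA3 to HOXA4, which had at most 6.

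HOXA10, a 5′ gene with a role in blood progenitors, showed the opposite pattern, with 0 counts in every CUTLL1 column. In CEM it had 2 counts in shJMJD3 cells, 122 in shUTX cells and 142 in shRenilla cells. HOXA13, the last gene of the cluster and a regulator of distal limb and gut development, had 22, 34, 30 and 11 counts in the CUTLL1 shJMJD3, shUTX, larger and smaller shRenilla columns. It had 67, 5 and 2 counts in CEM shJMJD3, shUTX and shRenilla cells, so the shJMJD3 column stood far above the other CEM columns. HOXB9, a 5′ HOXB gene, had 0, 6, 0 and 0 counts in CUTLL1 and 2, 170 and 174 in CEM.

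The lower-ranked members had few counts. HOXD3 had 8, 8, 4 and 2 counts in CUTLL1 and 5, 32 and 25 in CEM, and HOXB5 had 0, 1, 0 and 0 in CUTLL1 and 15, 18 and 38 in CEM. HOXC9 had 0 in all CUTLL1 columns and in CEM shJMJD3 cells, with 22 in CEM shUTX and 27 in CEM shRenilla cells. HOXC4 had 0, 0, 9 and 9 counts in CUTLL1 and 0, 14 and 8 in CEM. HOXC6 had 25, 2, 10 and 6 counts in CUTLL1, highest in shJMJD3 cells, and 4, 2 and 3 in CEM. HOXD12 had 8, 12, 6 and 6 in CUTLL1 and 0, 2 and 0 in CEM. HOXC4 and HOXC6 share exons with each other and with HOXC5, so the split of reads among them is uncertain.

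**Figure D2:**
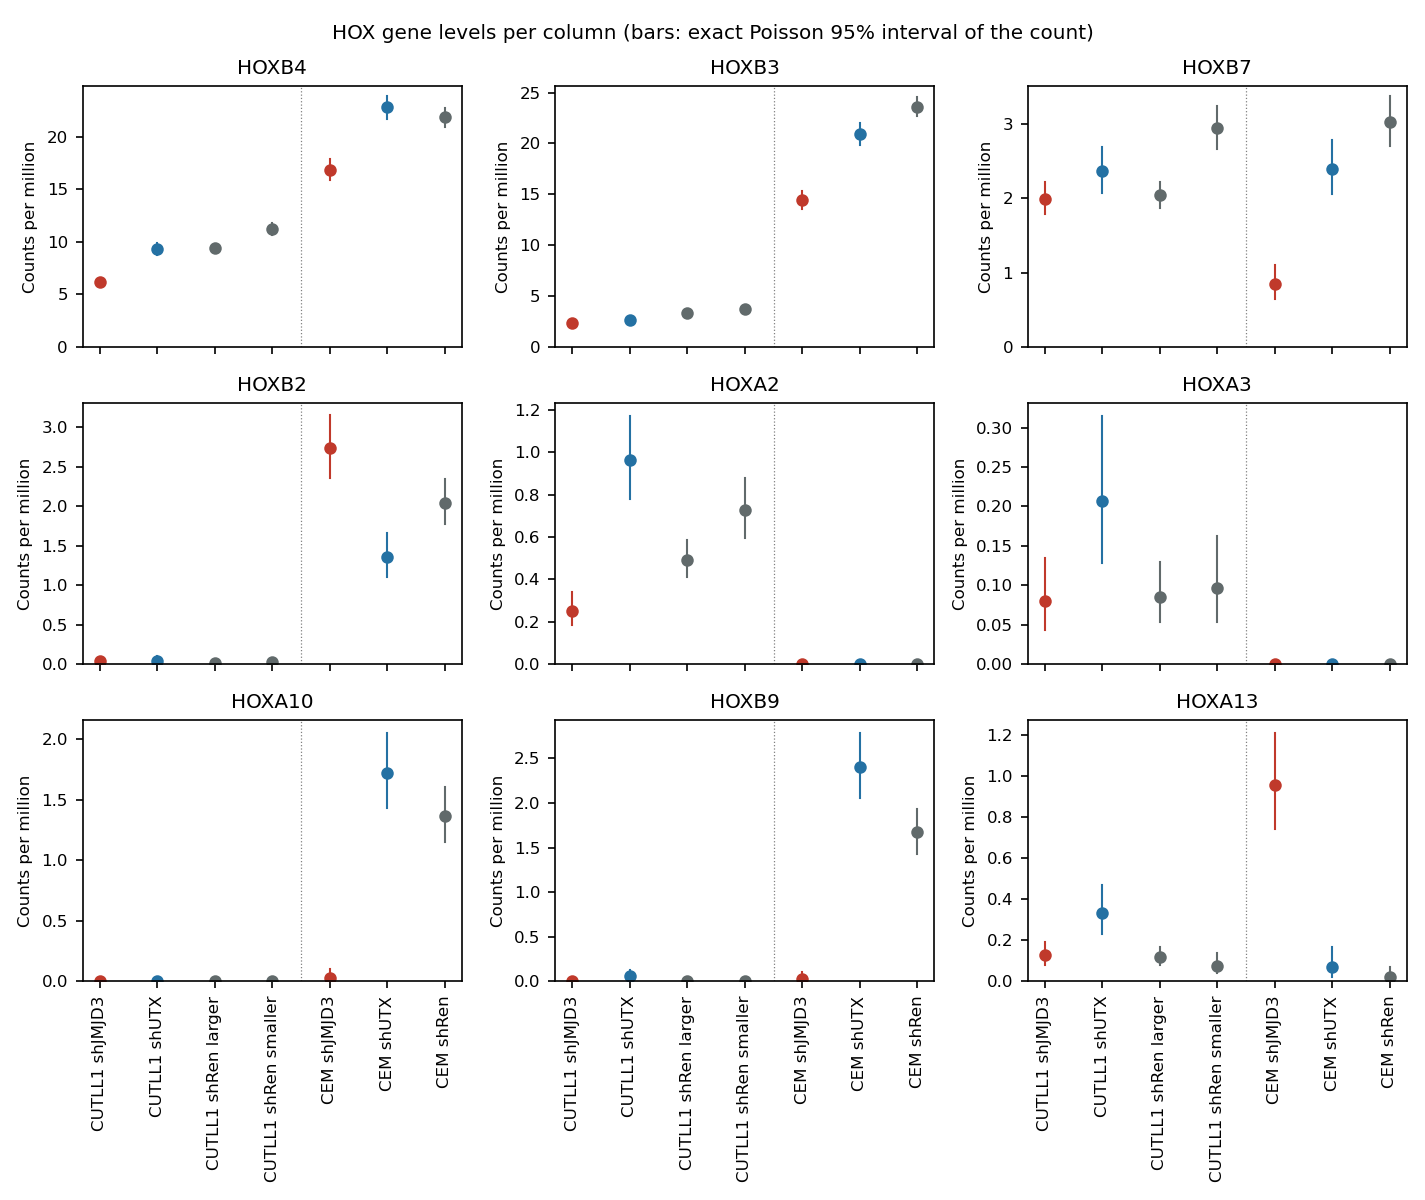
CPM of 9 HOX genes on linear axes, 1 point per deposited column of shJMJD3, shUTX and shRenilla cells in CUTLL1 (left) and CEM (right), with exact Poisson 95% intervals of the count. HOXA2 and HOXA3 are at 0 in CEM, HOXA10 is at 0 in CUTLL1, and in CEM the shJMJD3 points of HOXA10 and HOXB9 lie far below the other hairpins.

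CUTLL1 had more HOXA2, and CEM had more HOXA10, HOXC9, HOXB2, HOXB3, HOXB4, HOXB5 and HOXB9. edgeR's quasi-likelihood F test, with hairpin as a block and the 3 hairpin columns of each line as its replicates, tested 12 HOX genes at a Benjamini-Hochberg adjusted p under 0.05. It called 9 of them, 2 higher and 7 lower in CUTLL1, against 36.8% of all 24003 genes tested, 19% higher and 17.8% lower. The other 27 members did not pass the filter on low counts. HOXA2, at 0 in CEM, passed it through CUTLL1 alone and so had to differ. The same holds for HOXA10, HOXC9, HOXB2, HOXB5 and HOXB9, at 0 to 8 counts in each CUTLL1 column, which passed through CEM alone. The count of 9 therefore says nothing about HOX genes as a group. Each hairpin column of a line is a different condition, not a repeat. With hairpin as a block, the test sets the mean line difference against its variation from hairpin to hairpin. That variation is estimated in part from all genes, and the p-values do not measure it.

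HOXA2 was higher in CUTLL1 (adjusted p = 0.0188, edgeR). With CEM at 0, a floor of 3 counts over its 3 columns makes HOXA2 at least 41.2-fold and HOXA3 at least 8.73-fold higher in CUTLL1. Lower in CUTLL1 were HOXB3 by a log2 ratio of -2.49 ± 0.24 (SE, adjusted p = 0.00368, edgeR) and HOXB2 by -5.68 ± 0.56 (adjusted p = 0.00395, edgeR). HOXB4 was lower by -1.01 ± 0.21 (adjusted p = 0.0233), HOXB5 by -6.28 ± 1.09 (adjusted p = 0.0151) and HOXB9 by -6.45 ± 1.19 (adjusted p = 0.0176) in the same edgeR fit. HOXA10 and HOXC9, at 0 in CUTLL1, were also called lower there (adjusted p = 0.0163 and 0.0402, edgeR). The same floor makes HOXA10 at least 193-fold and HOXC9 at least 35.6-fold higher in CEM as pooled over 3 columns. These bounds do not hold for CEM shJMJD3 cells, where HOXA10 had 2 counts and HOXC9 had 0. The call of HOXC9 was lost with the smaller shRenilla column (adjusted p = 0.0560, edgeR), which left 8 HOX genes called, and in DESeq2 (adjusted p = 0.143). Without the shUTX columns only 9 HOX genes were tested, and 6 were called, 3 higher and 3 lower in CUTLL1. Over all genes, 7744 of 23914 were called there. The call of HOXB4 was among those lost (adjusted p = 0.0588, edgeR).

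Among the genes that did not pass, HOXB7 had a log2 ratio of 0.51 ± 0.44 (SE, adjusted p = 0.400, edgeR) and HOXD3 -2.08 ± 0.79 (adjusted p = 0.0955, edgeR). HOXA13 had 0.80 ± 1.43 (adjusted p = 0.679, edgeR), with its CEM columns spread between 2 and 67 counts. Without the shJMJD3 columns HOXA13 and HOXD3 were also called, and without the shRenilla columns 2 of 8 tested HOX genes were called. The calls lost there had adjusted p = 0.167 for HOXB4, 0.0525 for HOXB3, 0.0812 for HOXB5 and 0.0574 for HOXA2 in edgeR, while HOXA10, HOXB9 and HOXC9 were not tested.

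**Figure D3:**
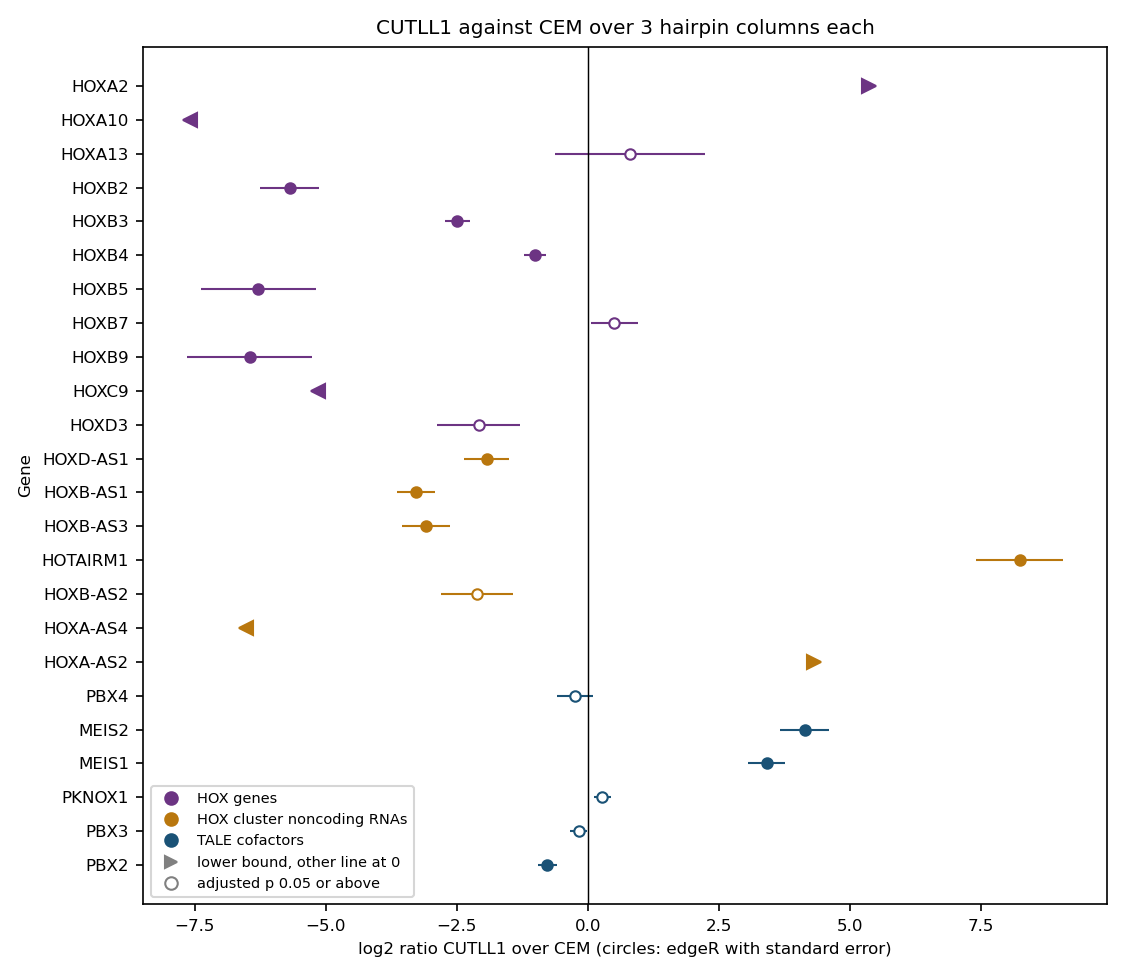
Log2 ratio of CUTLL1 over CEM for tested HOX genes, HOX cluster noncoding RNAs and TALE cofactors. Circles with bars are edgeR estimates with standard errors, triangles are lower bounds for genes without a count in the other line, and filled symbols have an adjusted p under 0.05. HOXA2 and HOTAIRM1 lie to the right, and HOXA10, HOXB2, HOXB5 and HOXB9 to the left.

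With the 2 lines as replicates, edgeR called no HOX gene for any hairpin, and DESeq2 called 1, HOXB9 in shJMJD3 against shUTX cells. For shJMJD3 against shRenilla, 12 HOX genes were tested and 0 were called by edgeR (0% of 24003 genes), 2 of them with an unadjusted p under 0.05. Over all genes edgeR called 0, with 936 at an unadjusted p under 0.05, and DESeq2 called 108, none of them a HOX gene. For shUTX against shRenilla, edgeR called 0 of 12 HOX genes and 0% of 23112 genes, with 39 genes and no HOX gene at an unadjusted p under 0.05, and DESeq2 called 4 genes, none of them HOX. For shJMJD3 against shUTX, edgeR called 0 of 12 HOX genes and 0% of 24003 genes, with 1945 genes and 3 HOX genes at an unadjusted p under 0.05. DESeq2 called 283 genes there, among them HOXB9 at a log2 ratio of -6.23 (adjusted p = 0.0194, DESeq2).

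The ratios that follow set 1 column against another of the same line and have no replicate check. They are log2 ratios of the pair after TMM scaling with a prior count of 2, with exact binomial 95% intervals, which reflect counting error alone. A gene is counted as apart at 1.5-fold or more, among genes with at least 50 counts summed over the pair. Comparisons that share a column are not independent, and in none of the 3 comparisons did a HOX gene pass 1.5-fold with the same sign in CUTLL1 and CEM. Only HOXA13, HOXB3, HOXB4 and HOXB7 had enough counts in both lines for some comparison. With a minimum of 10 counts, HOXD3 was 1.5-fold higher in shUTX against shRenilla cells of both lines, at log2 ratios of 1.68 in CUTLL1, from 8 and 2 counts, and 0.89 in CEM. HOXB2 was likewise higher in shJMJD3 against shRenilla cells of both lines, at 1.26 in CUTLL1, from 8 and 4 counts, and 0.68 in CEM.

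In CEM the largest ratios between shJMJD3 and shRenilla cells were those of HOXA10, HOXB9 and HOXA13, all from the 5′ part of their clusters. HOXA10 had a log2 ratio of -4.56 (95% interval -8.37 to -3.43) and HOXB9 one of -4.85 (-8.66 to -3.73), each resting on 2 counts in shJMJD3 cells. HOXA13 had the opposite sign, at 4.74 (3.996 to 8.98), with 67 counts in shJMJD3 and 2 in shRenilla cells. HOXB7 was lower at -1.53 (-1.98 to -1.15) and HOXB2 higher at 0.68 (0.40 to 0.98). HOXB3 stood at -0.43 (-0.54 to -0.33) and HOXB4 at -0.10. Of 8 HOX genes with enough counts, 2 were higher and 3 lower by 1.5-fold, while 46.7% of all 17795 genes were that far apart, 21.6% higher and 25.1% lower. The HOX median was -0.45, against -0.05 over all genes. Differences past 1.5-fold were thus frequent among all genes of this pair.

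In CEM, all but 1 of the HOX genes with enough counts were within 1.5-fold between shUTX and shRenilla cells. HOXA10 had a log2 ratio of 0.37 (95% interval 0.01 to 0.73), HOXB9 0.55 (0.25 to 0.87), HOXB7 -0.29 and HOXB4 0.10. HOXD3 was the single gene of 8 past 1.5-fold, at 0.89 (0.15 to 1.77), against 8.81% of all 17856 genes, 4.19% higher and 4.61% lower. HOXB2 fell just short at -0.55 (-0.92 to -0.20). The HOX median was -0.02, and that of all genes 0.00.

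In shJMJD3 against shUTX cells of CEM, HOXA10, HOXB9, HOXB7, HOXA13 and HOXB2 were past 1.5-fold. HOXA10 had a log2 ratio of -4.77, HOXB9 -5.24 and HOXB7 -1.23 (95% interval -1.71 to -0.82), while HOXA13 had 3.51 (2.70 to 5.66) and HOXB2 1.23. These were 2 higher and 3 lower genes of 7, against 45.8% of all 17127 genes apart, 22% higher and 23.8% lower.

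In CUTLL1 the largest ratio between shJMJD3 and shRenilla cells, among HOX genes with at least 50 counts over the pair, was that of HOXA2. Set against the larger control, HOXA2 had a log2 ratio of -0.80 (95% interval -1.35 to -0.32), HOXB4 -0.46 (-0.56 to -0.35), HOXB3 -0.37 (-0.54 to -0.20) and HOXB7 0.11. HOXA2 alone of 6 genes was 1.5-fold apart, and lower, against 17.5% of all 21269 genes, 9.46% higher and 8.01% lower. The HOX median was -0.41 and that of all genes -0.01. Against the control remainder, HOXA2 stood at 0.29 and HOXB7 at 1.07, so these ratios turn on which control counts are used. The remainder itself lay at -1.33 for HOXA2 and -1.17 for HOXB7 against the smaller column, and 41.1% of 19559 genes were 1.5-fold apart between these 2 parts of the control.

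Between shUTX and shRenilla cells of CUTLL1, HOXA2 and the HOXB genes were within 1.5-fold. Set against the smaller control, HOXA2 had a log2 ratio of 0.43 (95% interval 0.02 to 0.85), with HOXB4 at -0.24, HOXB3 at -0.45 and HOXB7 at -0.28. In all, 1 gene of 5 was past 1.5-fold, on the higher side, against 7.33% of all 18279 genes, 4.66% higher and 2.67% lower. Against the larger control 3 of 6 HOX genes were 1.5-fold higher, while 7.55% of all genes were higher and 18.1% lower. Against the remainder 3 of 6 were higher and 1 lower, while 21.4% of all genes were higher and 24.9% lower.

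Set against shUTX cells, shJMJD3 cells of CUTLL1 had less HOXA2 and HOXA13. The log2 ratio was -1.55 (95% interval -2.15 to -1.07) for HOXA2 and -0.998 (-1.92 to -0.26) for HOXA13. HOXB3, HOXB4 and HOXB7 stood at 0.17, -0.26 and 0.09. This made 0 higher and 3 lower genes of 6, against 26.2% of all 19555 genes apart, 19.1% higher and 7.14% lower. No control column enters this pair, but its columns differed in small noncoding RNAs, 11.7% of counts in shJMJD3 and 2.58% in shUTX cells. Between the control remainder, with 18.7% small noncoding RNAs, and the smaller control, with 1.97%, HOXA2 differed by -1.33. In the edgeR fit across lines, the log2 ratio of HOXA2 was -1.71 both with and without the small noncoding RNAs. Beyond leaving out these RNAs, the part of library composition in the HOXA2 ratio was not tested.

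**Figure D4:**
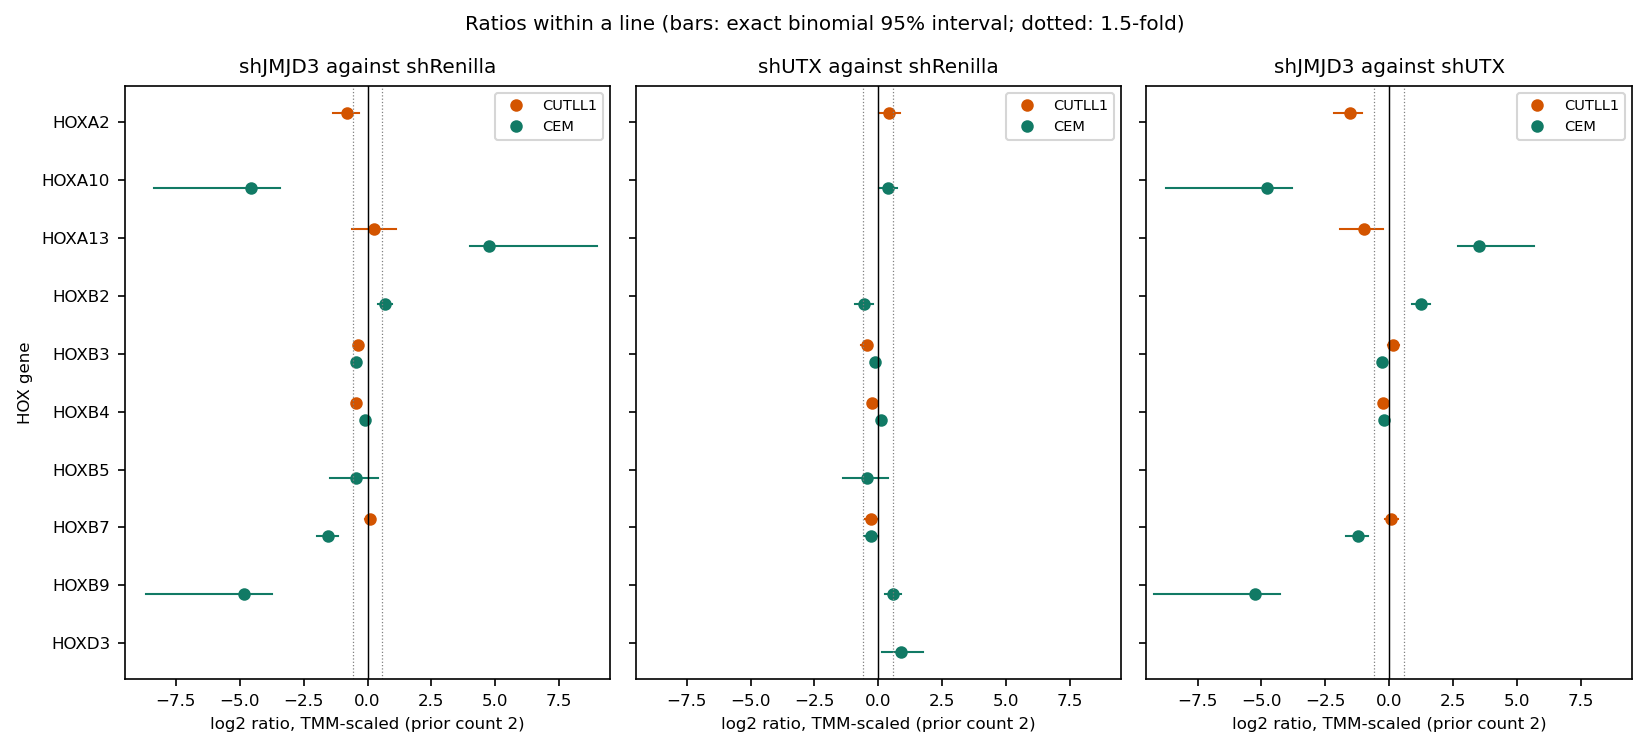
Log2 ratio within each line for HOX genes with at least 50 counts summed over the pair, in the 3 comparisons of hairpins, with 95% intervals for counting error alone. In CEM, HOXA10 and HOXB9 lie near -5 and HOXA13 above 3 in both comparisons of shJMJD3, whereas the CUTLL1 points lie between -1.55 and 0.43.

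The authors' deposited table gave p-values under 0.001, from the reads of the libraries at hand, for 7 of the 17 HOX genes with a p-value in shJMJD3 against shRenilla cells of CEM, where 54.4% of all genes had one. In CUTLL1 the authors' deposited table gave 5 of 17 for the same pair, against 40.2% of all genes. For shUTX against shRenilla the authors' deposited table gave 3 of 17 in CEM and 4 of 17 in CUTLL1, against 25.8% and 27.4% of all genes. For shJMJD3 against shUTX the authors' deposited table gave 10 of 17 in CEM and 5 of 16 in CUTLL1, against 53% and 51.5%.

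Noncoding RNAs of the clusters were measured beside the genes. HOTAIRM1, from the 3′ end of the HOXA cluster, had 194, 354, 435 and 324 counts in the CUTLL1 shJMJD3, shUTX, larger and smaller shRenilla columns and 0, 2 and 0 in CEM. It was higher in CUTLL1 by a log2 ratio of 8.24 ± 0.83 (SE, adjusted p = 0.00418, edgeR). With at most 2 counts in a CEM column, HOTAIRM1 passed the filter on low counts through CUTLL1 alone and so had to differ. Within CUTLL1 it stood at 0.66 in shUTX against shRenilla cells and at -1.30 in shJMJD3 against shUTX cells. HOXA-AS4, named HOXA10-AS in GENCODE 29, had 0 counts in CUTLL1 and 1, 61 and 64 in CEM shJMJD3, shUTX and shRenilla cells, the same order of columns as HOXA10. Its log2 ratio in CEM shJMJD3 against shRenilla cells was -3.93 (95% interval -10.5 to -2.63). The libraries mark strand, but the use of strand in the authors' counting was not given in the sources used here, so reads of HOXA10 and its antisense RNA cannot be told apart.

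HOXB-AS1 had 41, 39, 89 and 49 counts in CUTLL1 and 251, 264 and 422 in CEM, and was lower in CUTLL1 (log2 ratio -3.27 ± 0.37, adjusted p = 0.00529, edgeR). HOXD-AS1 had 20, 33, 40 and 18 counts in CUTLL1 and 24, 116 and 108 in CEM. It passed 1.5-fold with the same sign in each line, at 1.30 and 0.68 in CUTLL1 and CEM for shUTX against shRenilla and at -1.08 and -1.95 for shJMJD3 against shUTX. Of the 23 noncoding RNAs in the tables, 7 were tested, and edgeR called 2 higher and 4 lower in CUTLL1 against CEM, where 19% of all genes were higher and 17.8% lower, and none for a hairpin across lines. Some of the 7, HOTAIRM1 and HOXA-AS4 among them, passed the filter on low counts through a single line. These counts therefore say nothing about the noncoding RNAs as a group.

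Of the TALE cofactors, MEIS1 and MEIS2 passed 1.5-fold on the lower side in shJMJD3 against shRenilla cells of each line. The CUTLL1 ratios use the larger control. MEIS2 had 961 counts in CUTLL1 shJMJD3 cells and 2530 in the larger shRenilla column, a log2 ratio of -0.69 (95% interval -0.80 to -0.58). In CEM it had 12 counts in shJMJD3 and 105 in shRenilla cells, a log2 ratio of -2.16 (-3.29 to -1.42). MEIS1 had log2 ratios of -0.77 (-0.95 to -0.59) in CUTLL1 and -0.72 (-1.76 to 0.12) in CEM, the CEM value from 14 and 43 counts with an interval that includes 0. In CUTLL1, MEIS2 stood at 5.51 CPM in shJMJD3 cells, against 9.81 in the larger control, 11.6 in the smaller and 7.47 in the remainder. MEIS1 stood at 1.99 CPM, against 3.75, 4.39 and 2.94 in the same order. The size of both CUTLL1 ratios thus depends on which control counts are used. Neither gene was called across lines. Against CEM, CUTLL1 had more MEIS2 and MEIS1 (log2 ratios 4.14 and 3.41) and less PBX2 (-0.77), and edgeR called 4 of the 7 cofactors tested, against 36.8% of all genes. PBX2 was abundant throughout, and PBX3 differed by -0.17 (adjusted p = 0.448, edgeR).

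Polycomb, Trithorax and related regulators of HOX genes were close between the hairpins in CUTLL1. None of 19 regulators was 1.5-fold apart there in any of the 3 comparisons. Over all genes the shares apart were 17.5% for shJMJD3 against shRenilla, 7.33% for shUTX against shRenilla and 26.2% for shJMJD3 against shUTX. In CEM, 1 of the 19 was higher (EED) and 3 lower (CBX7 and MEN1 among them) by 1.5-fold in shJMJD3 cells, against either other hairpin. Of all genes, 21.6% were higher and 25.1% lower against shRenilla, and 22% and 23.8% against shUTX. None of the 19 was apart in shUTX against shRenilla cells, where 8.81% of all genes were. In CUTLL1 against CEM, edgeR called 10 of the 19, all lower in CUTLL1, against 17.8% of all genes lower. Of genes that lie beside the clusters, 6 of 10 were higher and 1 lower by 1.5-fold in shJMJD3 against shRenilla cells of CEM, where 21.6% of all genes were higher and 25.1% lower. In CUTLL1, 1 of 11 was higher and 1 lower, where 9.46% of all genes were higher and 8.01% lower. SKAP1, the T cell adaptor gene next to HOXB1, was past 1.5-fold on the higher side in shJMJD3 against shRenilla cells of each line, with log2 ratios of 1.42 in CUTLL1 and 0.83 in CEM.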

How the data were processed

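RNA from 14 samples was sequenced. Per the labels' protocols, polyadenylated or ribosome-depleted RNA was made into dUTP libraries that mark strand, with the selection of each sample not given in the sources used here. CASAVA, TopHat and hg19 are named, without versions, in the submitters' processing notes; the counting program was not given in the sources used here. Deposited by the authors were 6 DEGseq tables, 1 per line and pair of hairpins, each with raw read counts and p-values per gene. Every count column was read as pooling the samples of 1 hairpin in 1 line. Missing values, found only where neither column had a count, were read as 0.

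CPM were computed from column totals. Exon lengths and names came from GENCODE release 29, a different build, so no gene coordinates come from it. Tests used edgeR 4.0.16 (TMM, filterByExpr, quasi-likelihood F test) in R 4.3.3, fitted over all genes with line and hairpin as terms over 6 columns; DESeq2 1.42.0 was an alternative. Each hairpin was set against the shRenilla column of its own table, and the other fits used the larger column. The calculations were tested on simulated data. Scaling to totals instead of TMM shifts the log2 ratios of shJMJD3 to shRenilla by -0.14 in CUTLL1 and -0.27 in CEM, of shUTX to shRenilla by -0.03 and -0.04, and of shJMJD3 to shUTX by -0.33 and -0.23. Intervals and floors cover counting error only.

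Values are given in full for the 16 HOX genes of highest level, and for listed genes 1.5-fold apart with the same sign in each line. Members, lists and thresholds were chosen with earlier results of these data known. A few genes that these rules name are not reported here. EED, CBX7, MEN1, HOXA4 and the markers were named after their values were seen.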

Additional observations from a re-analysis of the deposited data

Results flagged for a closer look

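HOXA13 went opposite ways in the 2 lines in shJMJD3 against shUTX cells. The log2 ratio was -0.998 in CUTLL1, from 22 and 34 counts, and 3.51 in CEM, from 67 and 5 counts. Each line gives 1 value per hairpin, so the difference between lines was not tested.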

How the results depend on the processing

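No paired analysis was possible because the deposited columns carry no replicate number, and for the same reason no single sample could be left out. With DESeq2, shJMJD3 against shRenilla gave 108 calls, shUTX against shRenilla 4, and shJMJD3 against shUTX 283, of which 1 was a HOX gene, where edgeR called 0 in each. For shJMJD3 against shUTX, edgeR called 6 genes with column totals and 55 with no filter on low counts, none of them HOX. Leaving out the columns of 1 hairpin, CUTLL1 against CEM gave 1732 to 10304 calls, and 2 to 11 HOX genes called, the low end in each case without shRenilla. The log2 ratio of HOXA13 between lines became 2.71 without shJMJD3, -0.44 without shUTX and -0.22 without shRenilla.

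Log2 ratios near 0 changed sign across lines for HOXD3 in shJMJD3 against shRenilla (-0.21 with column totals, -0.0016 with no filter) and for HOXB5 in shUTX against shRenilla (-0.0014 with column totals). With the larger control, HOXB2 and HOXB4 in shUTX against shRenilla became 0.0747 and 0.0387. Against the control remainder, HOXA2 in CUTLL1 shJMJD3 cells became 0.29.

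Counts of HOX genes 1.5-fold apart within a line moved most with the count minimum. With at least 10 counts they were 7, 5 and 6 in CUTLL1 (shJMJD3 against shRenilla, shUTX against shRenilla, shJMJD3 against shUTX) and 8, 3 and 8 in CEM. With at least 200 counts they were 0 in the first and 1 in the third CUTLL1 comparison, and 2, 0 and 2 in CEM. Column totals gave 3 in the first CUTLL1 and 2 in the second CEM comparison. A 2-fold limit left 0 in the first and second CUTLL1 comparisons and in the second of CEM. The second CUTLL1 comparison gave 3 with the larger control and 4 with the remainder. The cause of these changes was not tested beyond what each setting itself removes. At these depths a HOX gene with 0 counts in a line can still be present below 0.00562 CPM in CUTLL1 or 0.0122 CPM in CEM, the level of 3 counts over a line's 3 columns.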
